A study of Mus musculus with 2 samples.

Results

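The genes described here are the mouse class I and class II histocompatibility genes and tapasin, measured on 1 Affymetrix array of embryonic stem (ES) cells carrying a control hairpin and 1 array of ES cells carrying a hairpin against the histone variant H2A.B. Probe sets were taken where the platform annotation named a single gene whose symbol began with H2-K, H2-D, H2-Q, H2-T, H2-M, H2-A, H2-E, H2-O, H2-DM or H2-Bl, or was B2m, Tap1, Tap2 or Tapbp. This gave 48 probe sets of 26 genes, out of 28898 probe sets that named 1 gene and 17097 genes in all. B2m, Tap1 and Tap2 were named by 0 probe sets and were not analysed here. Members were chosen by gene symbol, and the only measured values that entered were knockdown values that cannot be log2 intensities, which removed 2 members. A further 8 probe sets named a member together with another gene and were left out.

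Both cultures were feeder-free mouse ES cells in serum with leukaemia inhibitory factor, and both carried a pMSCV-neo retrovirus with a U6-driven short-hairpin RNA and stayed under G418 for 2 to 4 weeks. The groups thus share the vector, the drug and the stated range of selection time, and differ in the hairpin, whose target was H2A.B or a control sequence. Whether both were selected equally long is not given. Each group is 1 culture on 1 array, so differences between infections, cultures or arrays cannot be told apart from those of the hairpin. Nor can effects of that hairpin on other targets. The strain of the cells, on which the histocompatibility haplotype depends, is not in the labels, nor is whether the infected cells were cloned or pooled. With 1 array per group no difference below has a replicate error or a test, and the values describe these 2 arrays. H2A.B itself was named by 0 probe sets, so its depletion could not be checked. The ES cell label was borne out by Pou5f1, at a log2 intensity of 12.65 in control and 12.64 in knockdown cells, and Dppa5a, at 14.24 and 14.22.

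Class I molecules are a heavy chain paired with beta-2-microglobulin that displays cytosolic peptides to CD8 T cells and natural killer cells. The transporter Tap1-Tap2 brings the peptides into the endoplasmic reticulum, and tapasin, the product of Tapbp, holds empty class I molecules beside it. Class II molecules are alpha-beta pairs that display endosomal peptides on antigen-presenting cells; H2-DM helps to exchange their peptides and H2-O restrains H2-DM. Mouse ES cells are known for low class I and little or no class II at the surface, and interferon-gamma is the classical inducer of both. All 26 genes lie on chromosome 17 in the gene table used here.

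The start regions of 4 genes are printed to show the elements that class I and class II genes are known to be controlled by. H2-K1 and H2-D1 are the classical class I genes, and H2-M10.1 and H2-Eb2 the members with the largest differences between the arrays. Each run holds 250 bases before to 50 after the start that RefSeq annotates on GRCm38.p6, 5′ to 3′ in the direction of the gene. They lie at chr17:34000298-34000597 (minus strand), chr17:35262844-35263143 (plus), chr17:36326101-36326400 (minus) and chr17:34325425-34325724 (plus). Capitals mark matches on either strand to the enhancer A core GGGATTCCC, bound by NF-kappa-B and related factors, the interferon response element TTTCACTTC, the X2 half-site TGACG and the Y box CTGATTGG, bound by NF-Y. No marked matches overlap.
H2-K1: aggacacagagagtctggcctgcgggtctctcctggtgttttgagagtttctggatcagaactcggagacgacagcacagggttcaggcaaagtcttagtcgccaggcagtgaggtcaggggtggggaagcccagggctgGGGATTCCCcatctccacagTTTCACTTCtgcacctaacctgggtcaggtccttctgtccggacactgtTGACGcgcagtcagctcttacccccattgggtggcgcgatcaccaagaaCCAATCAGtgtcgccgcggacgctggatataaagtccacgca
H2-D1: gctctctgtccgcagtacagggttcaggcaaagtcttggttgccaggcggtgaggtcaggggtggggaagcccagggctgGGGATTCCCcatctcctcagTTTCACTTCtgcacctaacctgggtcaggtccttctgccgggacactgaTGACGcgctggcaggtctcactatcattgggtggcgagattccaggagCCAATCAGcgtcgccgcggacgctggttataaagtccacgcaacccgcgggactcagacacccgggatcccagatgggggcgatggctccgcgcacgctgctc
H2-M10.1: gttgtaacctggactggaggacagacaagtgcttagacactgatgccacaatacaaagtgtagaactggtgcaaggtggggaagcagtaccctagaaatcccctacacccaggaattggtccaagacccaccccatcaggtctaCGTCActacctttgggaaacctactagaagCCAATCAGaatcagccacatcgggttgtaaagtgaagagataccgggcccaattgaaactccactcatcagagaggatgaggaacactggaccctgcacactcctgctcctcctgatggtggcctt
H2-Eb2: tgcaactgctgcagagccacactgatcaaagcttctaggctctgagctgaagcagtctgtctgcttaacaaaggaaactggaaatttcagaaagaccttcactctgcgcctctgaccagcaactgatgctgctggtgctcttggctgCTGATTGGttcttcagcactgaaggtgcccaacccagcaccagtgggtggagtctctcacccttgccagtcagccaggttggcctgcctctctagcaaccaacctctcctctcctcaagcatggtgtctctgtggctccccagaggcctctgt

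H2-K1 and H2-D1 held matches to the letters of all 4 elements in the same order. In H2-K1 the enhancer A core began at base 141 of the window, the interferon element at 161, the X2 half-site at 210 and the Y box letters at 259. The corresponding bases in H2-D1 were 81, 101, 150 and 198. In both genes the Y box letters were on the minus strand. Between the X2 half-site and these letters both windows also hold an unmarked cattgggtggcg, with the ATTGG of the Y box on the plus strand. Which of these stretches serves as the Y box was not tested. RefSeq lists 2 starts for H2-K1, of which the first is printed. H2-M10.1 held the X2 half-site at base 145 and the Y box letters at 175, both on the minus strand, and neither the enhancer A core nor the interferon element. H2-Eb2 held only the Y box letters, at base 148 and on the plus strand, as the class II consensus is usually written.

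RefSeq start regions were found for 19 of the 26 genes; H2-Ab1, H2-Bl, H2-Ea, H2-Q1, H2-Q5, H2-T10 and H2-T24 are named only. The Y box letters, on either strand, stood in 9 of the 19, among them 5 of 10 class I and 4 of 8 class II genes. They stood in 4.10% of all 32851 start regions of the same length. The interferon element stood in 5 class I genes, H2-D1, H2-K1, H2-M3, H2-Q10 and H2-Q4, and in 0.505% of all regions. The enhancer A core was found in H2-D1 and H2-K1 and in 0.353% of all regions. The X2 half-site stood in 6 of the 19, against 20.8% of all regions. A member gene was counted where any of its start regions held the letters, whereas the shares are of single regions. The counts and the shares are thus in unlike units. These matches describe the letters of the windows and not binding in these cells.

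Of the 48 member probe sets, 46 had a usable value on both arrays, for 25 genes. The exceptions were the single probe set of H2-DMb1 and 1 of the 2 of H2-DMb2, which chaperone class II peptide loading. Their control values were 7.17 and 6.77, and their knockdown values, 107 and 236, belonged to a run of numbers rising in steps of 1 down the knockdown column. No member had a control value that repeated a control or knockdown value of the 20 rows above. This fault was found in 1455 other control values between rows 18185 and 33642 of the table. The brightest H2-Aa probe set lay in that stretch and its control value was itself repeated 3 rows below. The probe sets of H2-Eb2, 2 of H2-Aa and 1 of H2-Ob lay there. The other usable members were split evenly, with 21 before that stretch and 21 after it.

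Histocompatibility genes were at nearly the same intensity on both arrays, with 2 exceptions. Of the 46 probe sets 2 were at least 2-fold higher on the knockdown array, H2-M10.1 and H2-Eb2, against 1.12% of the 27614 usable probe sets naming 1 gene. None was at least 2-fold lower, against 3.07% of all. A 1.5-fold rule gave the same 2 higher and 0 lower, where 2.87% of all probe sets were higher and 6.23% lower. The median log2 difference, knockdown minus control, was -0.01 over the members and -0.01 over all 27614, and 32 of the 46 members (69.6%) lay within 0.1 of 0, compared with 57.1% of all. The next difference in size was 0.41, for H2-DMb2. As the members were chosen with earlier results of these arrays known, these shares are a description.

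**Figure D1:**
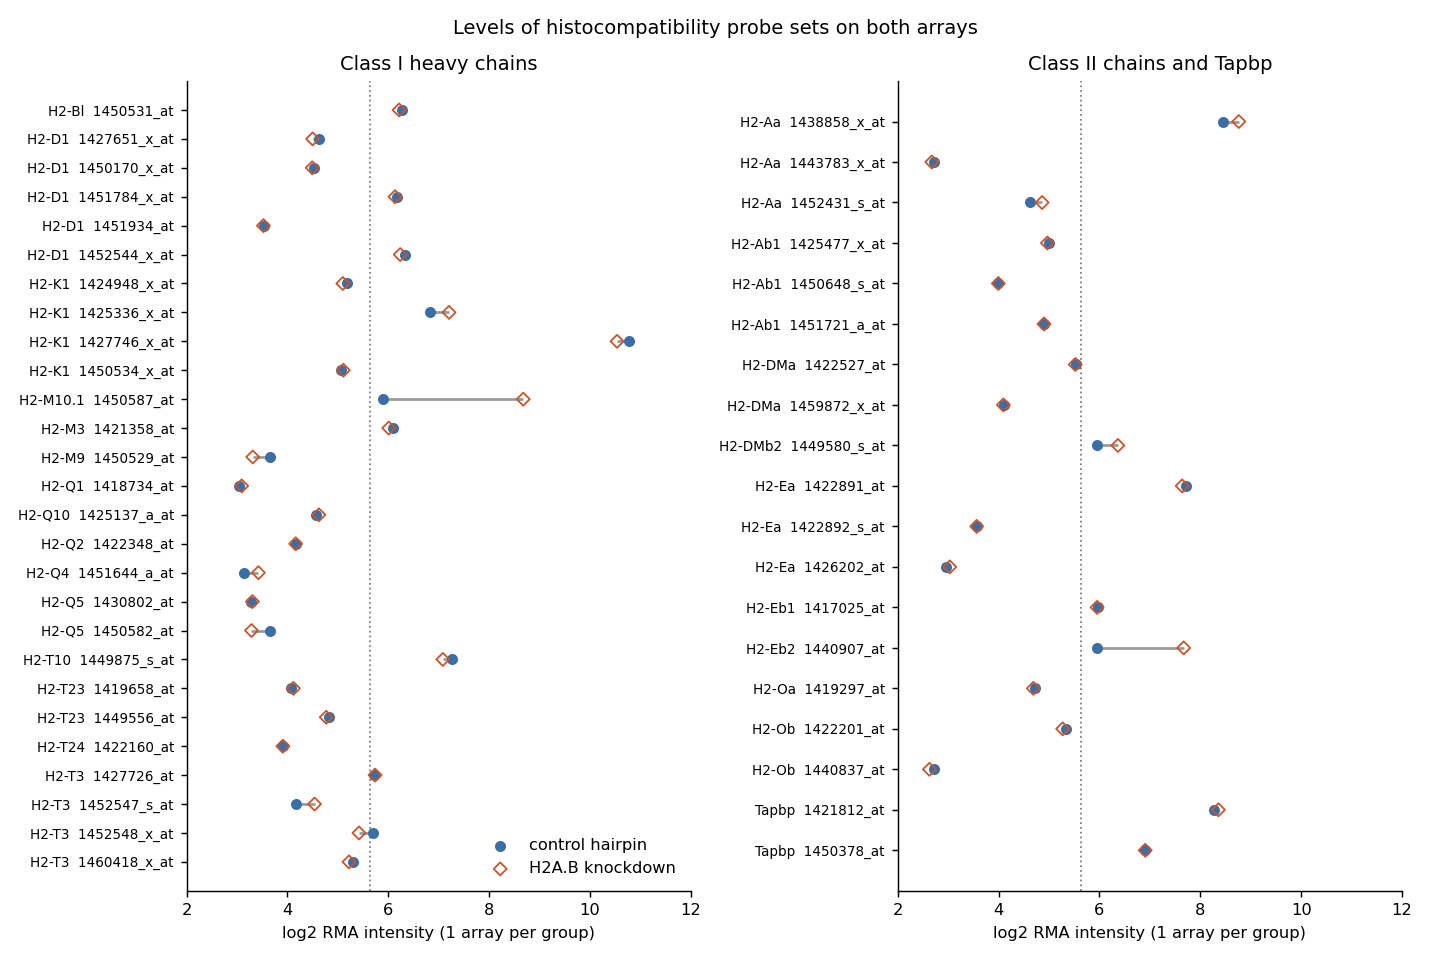
Log2 RMA intensity of each of the 46 usable histocompatibility probe sets on the control array (filled circles) and the knockdown array (open diamonds), with the control array's median of 5.64 as a dotted line. The circle and the diamond nearly coincide for most probe sets, and the long lines belong to H2-M10.1 (5.89 and 8.67) and H2-Eb2 (5.95 and 7.67).

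Probe sets bind with unequal strength, so levels were not ranked between genes; they were only set against each array's median, 5.64 for control and 5.59 for knockdown. Of the 46 member probe sets 29 lay below the median on both arrays, 16 lay at or above it on both, and 1, of H2-T3, lay above the control array's median and below that of the knockdown array, at 5.69 and 5.42. The share below on both arrays was 63.0% of the members and 40.1% of the 27614 usable probe sets naming 1 gene. The control values ran from 2.71 to 10.78 with a median of 4.95, and the knockdown values from 2.63 to 10.53 with a median of 4.94. Signal over background was not analysed, so a dim probe set was not read as a gene without transcript.

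**Figure D2:**
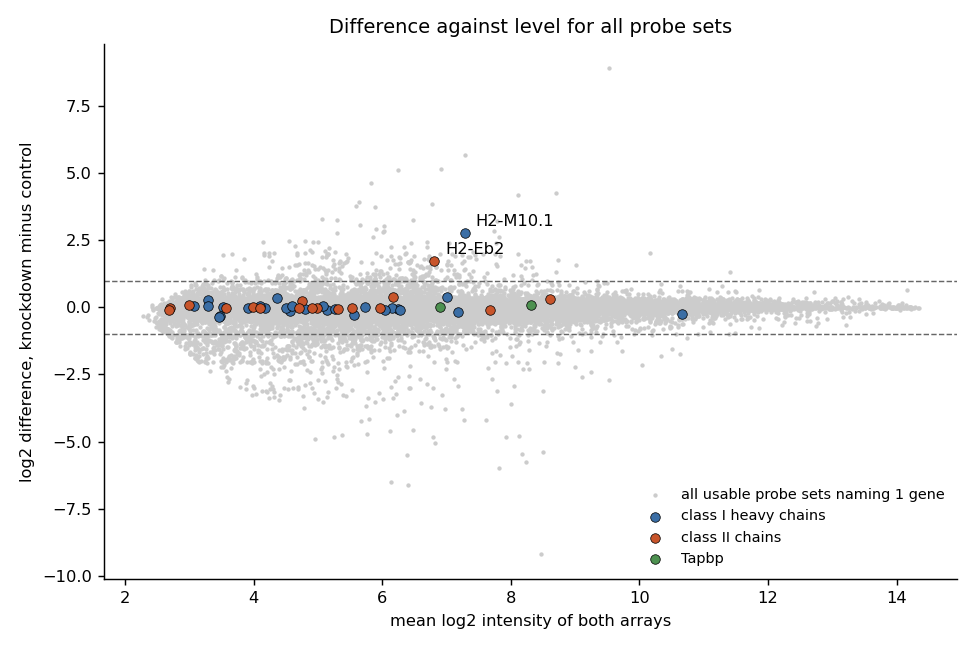
Log2 difference, knockdown minus control, against the mean log2 intensity of both arrays for all 27614 usable probe sets naming 1 gene (grey) and for the members (coloured by class), with dashed lines at 2-fold. H2-M10.1 (2.78) and H2-Eb2 (1.72) lie above the upper line, and the other 44 members lie between -0.36 and 0.41.

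Among the classical class I genes, H2-K1 and H2-D1, no probe set differed by 1.5-fold. The brightest H2-K1 probe set had 10.78 in control and 10.53 in knockdown cells. The next went the other way, from 6.82 to 7.20. The dimmer ones had 5.18 and 5.10, and 5.05 and 5.11. The 4 H2-K1 differences of -0.24, 0.38, -0.08 and 0.05 therefore had no common direction.

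All 5 H2-D1 probe sets were slightly lower on the knockdown array, by -0.12 to -0.0023 on the log2 scale. Their control values were 4.62, 4.52, 6.17, 3.53 and 6.33, and their knockdown values 4.50, 4.49, 6.13, 3.53 and 6.24. The SD of these 5 differences was 0.05. The 5 cannot be counted as independent, since they read the same RNA and 4 carry the x suffix that marks probes shared between similar transcripts. Class I sequences are alike and differ between haplotypes, so signal assigned to H2-K1 and H2-D1 cannot be fully told apart. Among the probe sets left out for naming several genes, 5 named H2-K1 and H2-D1 with LOC547349. Of these, 4 differed by -0.03 to 0.05 and 1 by -1.44, from 5.99 to 4.55. The other 3 named H2-Q6 with Ddx39b and differed by 0.21, 0.22 and 0.0074.

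The nonclassical class I genes of the Q and T regions stayed within 0.4 of equal on the log2 scale. H2-Q1, H2-Q2, H2-Q4, H2-Q5 and H2-Q10, the last known as a secreted liver molecule, lay below the array median on both arrays with all 6 probe sets, at control values from 3.04 to 4.57 and knockdown values from 3.09 to 4.62. Their largest differences were 0.28 for H2-Q4, from 3.15 to 3.42, and -0.36 for 1 H2-Q5 probe set, from 3.65 to 3.29, while the other H2-Q5 probe set differed by 0.04. H2-T23 encodes Qa-1, which shows leader peptides of other class I molecules to natural killer cell receptors; its probe sets had 4.08 and 4.12, and 4.82 and 4.77. H2-T10, whose product is recognised by gamma-delta T cells, had 7.26 in control and 7.08 in knockdown cells. H2-T24 had 3.92 and 3.91. H2-T3, the thymus leukaemia antigen gene, had differences of 0.02, 0.36, -0.27 and -0.08 on its 4 probe sets, of which those at 0.36 and -0.27 were designed on the same transcript record. H2-Bl, a class I gene named for the blastocyst, had 6.27 and 6.21.

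The M region held the member with the largest difference. H2-M10.1 belongs to a class I family known from pheromone-sensing neurons of the vomeronasal organ, and its only probe set had 5.89 in control and 8.67 in knockdown cells. The difference of 2.78 on the log2 scale is 6.89-fold, and 23 of the 27614 usable probe sets, itself included, were higher by as much. H2-M3, which presents N-formylated peptides, had 6.09 and 6.01. H2-M9 had 3.65 and 3.31. Other genes of the H2-M10 family were not measured by a member probe set, so the difference rests on 1 probe set.

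What surrounded the H2-M10.1 value in the table and on the chromosome was measured too. Among the 40 usable probe sets within 20 rows of it in the table, 2 were at least 2-fold higher and 3 lower, and the median difference was 0.04. Both higher ones named Sry, the testis-determining gene, at 2.42 and 1.02. That part of the table, after the repeated stretch, held 125 probe sets at least 2-fold higher and 317 lower among 6996. Before that stretch 45 were higher and 203 lower among 13833. Whether the position in the table has a part in the H2-M10.1 difference was not tested. Of its nearest measured neighbours on chromosome 17, Trim39 differed by 0.05 and Rpp21 by 0.03 on one side. On the other side H2-M9 differed by -0.33 and Trim15 by -0.37.

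The genes of the class II A and E chains showed 1 difference past 2-fold, that of H2-Eb2. H2-Eb2 encodes an E beta chain, and its only probe set, designed on an expressed sequence tag, had 5.95 in control and 7.67 in knockdown cells. The difference of 1.72 is 3.29-fold, and 99 of the 27614 usable probe sets, itself included, were higher by as much. H2-Eb1, the gene of the common E beta chain, had 5.97 and 5.95. H2-Ea, of the E alpha chain, differed by -0.08, -0.01 and 0.07 on its 3 probe sets, the brightest of which had 7.72 and 7.64. Neither the gene of the partner chain nor the neighbouring E beta gene showed a difference of that size. Of the next measured genes beyond H2-Ea on chromosome 17, Btnl2, a butyrophilin-like gene, differed by -0.99, from 3.98 to 2.99, and BC051142 by 0.53.

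The A alpha gene H2-Aa was slightly higher on the knockdown array on 2 of its 3 probe sets, with 8.46 and 8.76 on one, and 4.63 and 4.86 on another. The remaining one had 2.71 and 2.68. The A beta gene H2-Ab1 had 3 probe sets that differed by -0.02, 0.0033 and -0.0026, at control values of 4.99, 3.99 and 4.90. The brightest H2-Aa probe set and that of H2-Eb2 came from the stretch of the table with repeated control values. Of 6785 usable probe sets there that named 1 gene, 139 were at least 2-fold higher and 328 lower. Over all 27614 the counts were 309 and 848. Within 20 rows of H2-Eb2 1 of 33 usable probe sets was at least 2-fold higher and 1 lower. The part of that stretch in the H2-Eb2 difference was not tested.

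Genes of class II peptide exchange and the remaining loading gene showed no difference past 1.5-fold. H2-DMa had 5.53 and 5.52 on one probe set and 4.10 and 4.10 on the other. The usable H2-DMb2 probe set had 5.96 in control and 6.37 in knockdown cells. H2-Oa, of the H2-O alpha chain, had 4.72 and 4.69, and H2-Ob, of its beta chain, 5.34 and 5.27 on one probe set and 2.73 and 2.63 on the other. Tapbp had 8.27 and 8.36 on one probe set and 6.90 and 6.91 on the other, above the median of both arrays.

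The only spread available is that between probe sets of 1 gene, which is technical. Over the 11 member genes with more than 1 usable probe set the SD of the difference had a median of 0.066, and over all 6826 such genes of the arrays one of 0.065. It was 0.27 for H2-K1, 0.26 for H2-T3, 0.28 for H2-Q5 and 0.18 for H2-Aa, and 0.00077 for H2-DMa. Probe sets of both signs were found for 7 of the 11 genes. Neither H2-M10.1 nor H2-Eb2 had another probe set, so this spread is not known for them. It holds no error between arrays or cultures, and their differences were not tested. The range between the 4 probe sets of H2-K1, 0.63, was wider than the difference of any member apart from H2-M10.1 and H2-Eb2.

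**Figure D3:**
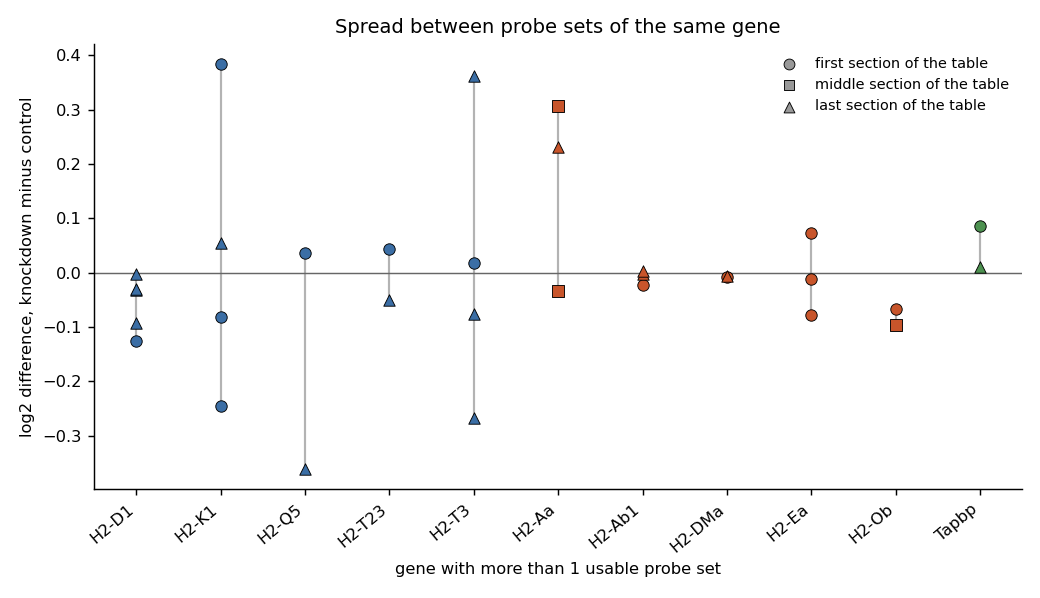
Log2 difference, knockdown minus control, of every usable probe set of the 11 member genes with more than 1, with marker shapes for the section of the deposited table (before, inside or after the stretch with repeated control values) and a vertical line from the lowest to the highest. H2-D1 lies below 0 on all 5 probe sets, while H2-K1 spans -0.24 to 0.38 and H2-T3 -0.27 to 0.36.

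By class, the 27 class I probe sets had a median difference of -0.03 with 10 above 0 and 17 below. The 17 class II probe sets had a median of -0.01, with 6 above 0 and 11 below. The 2 Tapbp probe sets had one of 0.05. Over all 27614 usable probe sets naming 1 gene, 12758 were above 0 and 14769 below. The 17 class I values below 0 include all 5 of H2-D1, which cannot be counted as independent. Members with a mean below the median of the arrays, 30 probe sets, all lay within 0.5 of 0, compared with 86.6% of the 11620 such probe sets overall.

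The rest of the antigen presentation pathway was read from 1 value per gene, that of its brightest usable probe set. Over all genes 1.13% were then at least 2-fold higher and 2.91% lower. Of the 7 loading partners that fold, trim or retain class I molecules 0 differed by 2-fold (median -0.01): the retention factor relative Tapbpl by -0.17, with 0.23 on its other probe set, the aminopeptidase gene Npepps by 0.12, the chaperone gene Calr by 0.07 and the disulphide isomerase gene Pdia3 by -0.06. Of the 9 proteasome genes of peptide production, 0 differed by 2-fold (median -0.02). The interferon-induced subunit genes Psmb8 and Psmb9 had 5.06 and 5.02, and 6.10 and 6.14, and the other Psmb9 probe sets differed by -0.03 and -0.53. Psmb10, another of these, differed by -0.28, Psme3 by 0.14 and Psmb6 by 0.10.

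Transcriptional regulators of the class I and class II genes likewise had 0 of 12 measured members past 2-fold (median 0.01). Ciita, the class II transactivator, had 4.98 in control and 4.95 in knockdown cells. Irf1, an interferon-induced activator of class I genes, had 8.86 and 8.88. Creb1 differed by 0.40, but its other 5 probe sets ran from -0.51 to 0.96, and Nfya, a subunit of the Y box factor, differed by 0.37 with -0.19 and -0.13 on its others. Rela differed by 0.11 and Rfxank, of the X box complex, by -0.11. Nlrc5, the class I transactivator, had no usable value.

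Class II processing genes had 0 of 9 past 2-fold (median -0.01). Cd74, the invariant chain gene, had 5.77 and 5.86, and the endosomal protease genes Lgmn, Ctsd and Ctss differed by -0.37, -0.31 and 0.24. Marchf1, a ligase gene that lowers surface class II, differed by -0.17 on its brightest probe set and by -4.60 and -0.10 on its others. Interferon signalling genes had 1 of 11 past 2-fold (median 0.06). Socs3, a feedback inhibitor of cytokine receptors, was lower by 3.66-fold on its single probe set, at 5.14 in control and 3.27 in knockdown cells. Ifnar2 differed by 0.38, with -0.04 and -0.33 on its other probe sets, Ifngr1 by 0.23 and Socs1 by 0.20.

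Class I-like molecules outside the H2 names had 0 of 8 measured genes past 2-fold (median -0.01), with H60b, a ligand of a natural killer receptor, at -0.26, Hfe, of iron uptake, at -0.14, Cd1d1, which presents lipids, at 0.10 and Azgp1 at -0.06. Receptors and co-receptors for class I or class II, genes of lymphocytes and myeloid cells, had 0 of 9 past 2-fold (median -0.02), with Cd8a at 0.24, Klrk1 at 0.22, Pirb at -0.13 and Cd8b1 at -0.10. The dimmer Cd8a probe sets differed by -1.26 and 0.19.

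**Figure D4:**
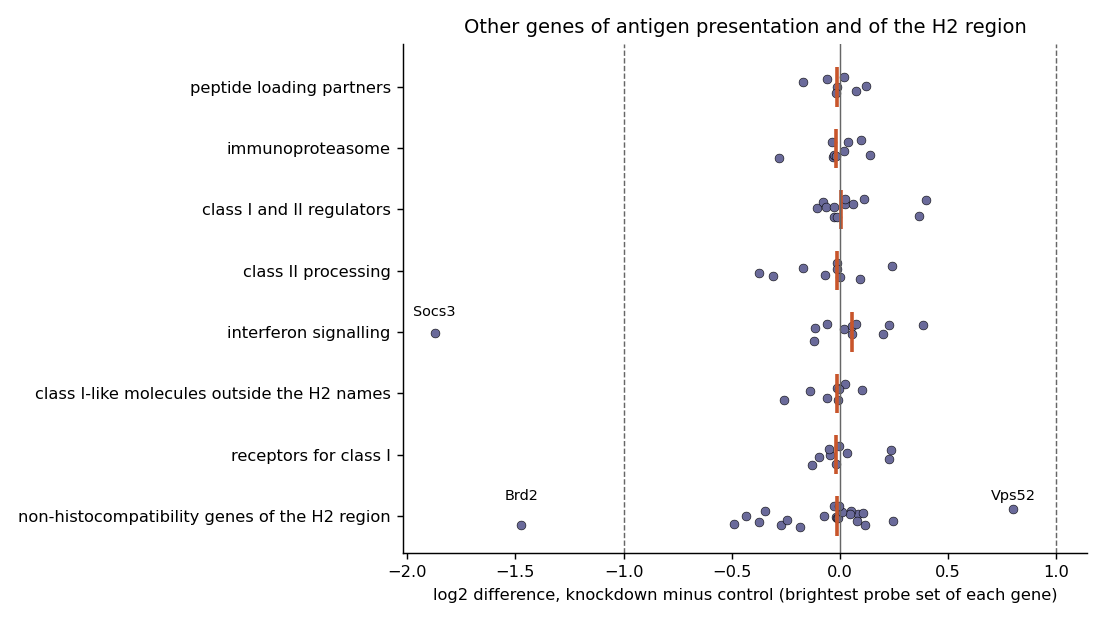
Log2 difference, knockdown minus control, of each measured gene of 8 lists, by its brightest usable probe set; orange bars are list medians and dashed lines mark 2-fold. Points lie close to 0 apart from Socs3 (-1.87), Brd2 (-1.47) and Vps52 (0.80).

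Genes of other kinds that share the H2 region of chromosome 17 with the members gave a local comparison. Of 23 measured genes of a list of 27, Brd2, a bromodomain gene, was 2.78-fold lower, with 5.97 and 4.49, and 0 were 2-fold higher (median -0.02). Vps52 differed by 0.80, Ddx39b by -0.49 and Bag6 by -0.44. Gabbr1 differed by -0.34 on its brightest probe set and by 0.47 and -1.19 on its others. The probe sets left out for naming Ddx39b together with H2-Q6 differed by 0.21, 0.22 and 0.0074. Taking every measured gene between Tapbp and H2-M3 that is no member, 1 of 95 was at least 2-fold higher and 2 lower, and the median was -0.01. Named after these values were seen, they were Nfkbil1 (1.67), Brd2 and Egfl8 (-1.27). Over the 25 members in that region, read by gene, the median was -0.02.

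Markers of other cell types showed no difference past 2-fold. The 10 measured blood and antigen-presenting cell markers had a median difference of 0.03 with 0 past 2-fold; Ptprc, the pan-leukocyte gene, had 6.46 and 6.02, Itgax 5.08 and 5.09, and Cd79a 5.48 and 5.52. The 9 fibroblast markers had a median of 0.05, from -0.09 to 0.26, with Col1a1 at 7.77 and 8.01. Trophectoderm markers had a median of -0.04 over 6 genes and endoderm markers one of -0.01 over 5, with 0 past 2-fold in either list. In bulk RNA fewer cells of a type and less RNA per cell cannot be told apart.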

How the data were processed

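Total RNA (2 µg per culture) of 2 cultures, 1 per group, was profiled on Affymetrix arrays. The authors used RMA, according to the submitters' processing notes; its version is not given in the sources used here. The deposited control column was used as log2 intensities, from its range of 0.801 to 14.5; the deposited knockdown column was recorded as a score, since 616 of its values form a series with a step of 1 and 2 others exceed 20, and its other values were used as log2. RMA evens out the arrays' distributions and pulls low values together, which can shrink differences of dim genes.

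The 618 such values were left out, as were 1455 control values identical to a control or knockdown value up to 20 rows above. This left 27614 probe sets naming 1 gene. Their arrays correlated across probe sets with r = 0.983. Gene names came from the platform annotation, and all 26 gene identifiers were found in the GRCm38.p6 gene table. No filter on level and no centring was used. With 1 array per group there was no test: log2 differences were described with a 2-fold rule, and arrays limit the precision by their number. Members, lists and rules were chosen with earlier results of these data known. All members were reported. Of each list up to 4 genes with the largest absolute difference and a few fixed genes were named, and Gabbr1 for its unlike probe sets. The search for faulty values was tested on simulated data. The 2-fold rule was run on the same data, whose noise was set in advance, so its error on these arrays is not known. Python 3.11.15, pandas 2.3.3 and statsmodels 0.14.6 were used. Alternatives are in the closing section.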

Additional observations from a re-analysis of the deposited data

How the results depend on the processing

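The counts and class medians were recomputed with 12 and 11 alternatives each, set beside the main value. Of 68 such values 61 stayed within 1.5 times the count or within 0.065 of the median, the median SD between probe sets of 1 gene. The count of 2 members at least 2-fold higher became 0 with the filter at the 75th percentile of mean intensity, where 3 member probe sets were left. It became 1 outside the stretch with repeated control values, where H2-Eb2 lies, and 1 without H2-M10.1. With the 75th percentile filter the median of all members was 0.086, that of class I -0.24 from 1 probe set and that of class II 0.31 from 1 probe set. With the filter at the median, class II had 0.31 over 5 probe sets. Fewer probe sets are left under each of these. The count of members at least 2-fold lower was 0 under all 12 alternatives run. Median or lowess centring moved none of the 46 usable member probe sets by more than 0.0134. No replicate could be left out. No paired analysis was possible because each group has 1 array.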
